A study of Homo sapiens with 19 samples.

Results

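The genes BDH1, ARNT2, LGALS2, RIPK4, ZNF703, ROR1, PECAM1, PDP1 and CALM2 lay at or near broad superenhancers that were listed for control breast cancer cells and were missing from the list of the same cells with forced OCT-2. They are 9 of 20037 protein-coding gene entries in the RefSeq table, and their 9 regions are 9 of 337 superenhancers of the control cells. The members were chosen from the lists themselves. Of the 337 control superenhancers, 29 (8.61%) shared no base with any superenhancer of the OCT-2 cells, and the 9 regions are the widest of those 29. Their absence from the second list and their width are therefore a description and were not tested.

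Both cell populations are MDA-MB-231 (231Pa), a human triple-negative breast cancer line. The control, 231Pa_Luc+GFP, carried luciferase and GFP, and 231Pa_Luc+OCT-2 carried luciferase and POU2F2, the gene of OCT-2. Each was a polyclonal population with stable transgenes, and no source used here names the promoter driving them. H3K27ac was precipitated in both, with 2 replicates each, and OCT-2 in the forced OCT-2 cells alone, also with 2 replicates. No OCT-2 ChIP of the control cells was analysed here, and at these genes binding by the transgene's protein cannot be told apart from that by the cells' own OCT-2. The authors merged the replicates into lists of positions without read counts or scores. Depth is unknown, no value exists per replicate, and no test over samples could be made. By the sample labels, neither population had an input control of its own. A region missing from a list fell short of the authors' call, and its level of H3K27ac is not known. The superenhancer lists carried the marks of a mesenchymal and basal line: all 8 genes checked, among them VIM, CD44 and EGFR, lay within 10 kb of a superenhancer in the OCT-2 cells and 7 in the control cells. None of 9 luminal genes did so in either population. Over all protein-coding genes, 4.31% lay within 10 kb of a control superenhancer and 5.74% within 10 kb of a superenhancer of the OCT-2 cells. The absence of luminal genes is thus near the background and does not describe the line.

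Superenhancers are long stretches of chromatin with dense H3K27 acetylation, a mark of active enhancers and promoters, and they often lie at genes that define the state of a cell. OCT-2 is a POU-domain factor that binds the octamer element and is best known from B lymphocytes. The 9 genes do not form a pathway. They cover metabolism (BDH1, PDP1), calcium signalling (CALM2), kinases and receptors (RIPK4, ROR1), cell surface and lectin proteins (PECAM1, LGALS2) and transcription (ARNT2, ZNF703).

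To show what stretch of DNA the regions cover, the bases before the start were taken for the genes whose starts the table holds. RefSeq promoter windows (GRCh38.p14, 250 bases before to 50 after the start) were matched for 3 of the 9 members, ROR1, LGALS2 and BDH1, and for DLG1, which the region at BDH1 meets. The 250 bases before the outermost start of each are printed 5′ to 3′ on the strand of the gene, with CCAAT boxes (CCAAT, either strand) in capitals.
ROR1, chr1:63773767-63774016, plus strand: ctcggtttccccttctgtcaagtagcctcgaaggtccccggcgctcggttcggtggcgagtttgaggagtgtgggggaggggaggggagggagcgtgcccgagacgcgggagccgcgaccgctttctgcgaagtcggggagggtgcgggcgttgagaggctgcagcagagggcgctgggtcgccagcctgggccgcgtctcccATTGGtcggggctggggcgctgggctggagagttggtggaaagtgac
LGALS2, chr22:37580088-37580337, minus strand: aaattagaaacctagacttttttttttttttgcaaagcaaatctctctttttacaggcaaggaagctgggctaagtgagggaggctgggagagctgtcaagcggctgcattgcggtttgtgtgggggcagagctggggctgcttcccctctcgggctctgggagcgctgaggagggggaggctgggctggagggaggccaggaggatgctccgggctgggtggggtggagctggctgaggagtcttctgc
BDH1, chr3:197573344-197573593, minus strand: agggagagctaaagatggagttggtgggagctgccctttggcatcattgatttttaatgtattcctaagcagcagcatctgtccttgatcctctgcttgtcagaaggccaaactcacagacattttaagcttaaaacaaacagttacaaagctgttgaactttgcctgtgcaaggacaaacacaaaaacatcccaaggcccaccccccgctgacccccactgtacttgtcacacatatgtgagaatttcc
DLG1, chr3:197299322-197299571, minus strand: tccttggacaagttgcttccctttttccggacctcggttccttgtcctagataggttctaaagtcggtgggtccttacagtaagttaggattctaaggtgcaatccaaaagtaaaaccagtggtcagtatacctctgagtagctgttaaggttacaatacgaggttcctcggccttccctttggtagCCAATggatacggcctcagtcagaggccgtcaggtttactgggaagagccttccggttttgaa
ROR1 and DLG1 each have 1 CCAAT match before these starts, and LGALS2 and BDH1 have none. The windows of ROR1, LGALS2 and DLG1 lie inside the lost regions, and that of BDH1 lies outside.

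Over all 15 windows matched to protein-coding genes at these regions, 12 of them inside a region, the octamer ATGCAAAT was found in 0 on either strand, against 1.77% of 35116 windows in the table. The AP-1 letters TGANTCA also gave 0 of 15, against 7.71%. CCAAT was found in 4 of 15, against 34.6% of all windows, and the GC box GGGCGG in 9 of 15, against 45%. The 15 windows came from only 9 genes, with several from DLG1. Some windows of DLG1 and of GGA1 overlap, so the same matches were counted more than once. These counts are therefore not of independent promoters. CCAAT and GGGCGG were searched after the windows had been seen, and none of the 4 strings contains another. The window of ROR1 was 69% G and C, against a median of 58.7% over the table, and that of LGALS2 57.7%. These matches describe letters in short windows, and the OCT-2 peaks themselves lay outside all of them.

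The lost regions also contained 4 microRNA genes. The mature sequences of 3 are shown as examples of the short transcripts that lie wholly inside a lost region, at BDH1 (MIR4797), ARNT2 (MIR5572) and RIPK4 (MIR6814). Capitals mark the seed, bases 2 to 8 from the 5′ end.
hsa-miR-4797-3p, chr3:197293888-197293908, minus strand: uCUCAGUAaguggcacucugu
hsa-miR-4797-5p, chr3:197293919-197293939, minus strand: gACAGAGUgccacuuacugaa
hsa-miR-5572, chr15:80581179-80581199, plus strand: gUUGGGGUgcaggggucugcu
hsa-miR-6814-3p, chr21:41746772-41746793, minus strand: aCUCGCAUccuucccuuggcag
hsa-miR-6814-5p, chr21:41746815-41746836, minus strand: uCCCAAGGgugagaugcugcca
No 2 of these 5 mature forms share a seed. No OCT-2 peak overlapped any of the 4 genes, and 1 peak lay within 10 kb of MIR5572.

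The 9 regions were 134 to 226 kb wide, with a median of 162 kb, against a median of 105 kb over all 337 control superenhancers. In the whole control list they ranked from 23rd (BDH1) to 101st (CALM2) by width, so every control superenhancer wider than the BDH1 region was kept. The region at BDH1 merged 3 calls and each of the others 2. Just outside the choice by width was the region at SAMD4A, of 127 kb. The narrowest member region, at CALM2, had 134 kb. On the side of the overlap, the nearest superenhancer of the OCT-2 cells came within 42.5 kb of the CALM2 region, while the least covered of the shared control regions, at UBR4, was overlapped over 5.68 kb or 7.25% of its width. Shared control regions were covered over a median of 99.3% of their width.

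**Figure D1:**
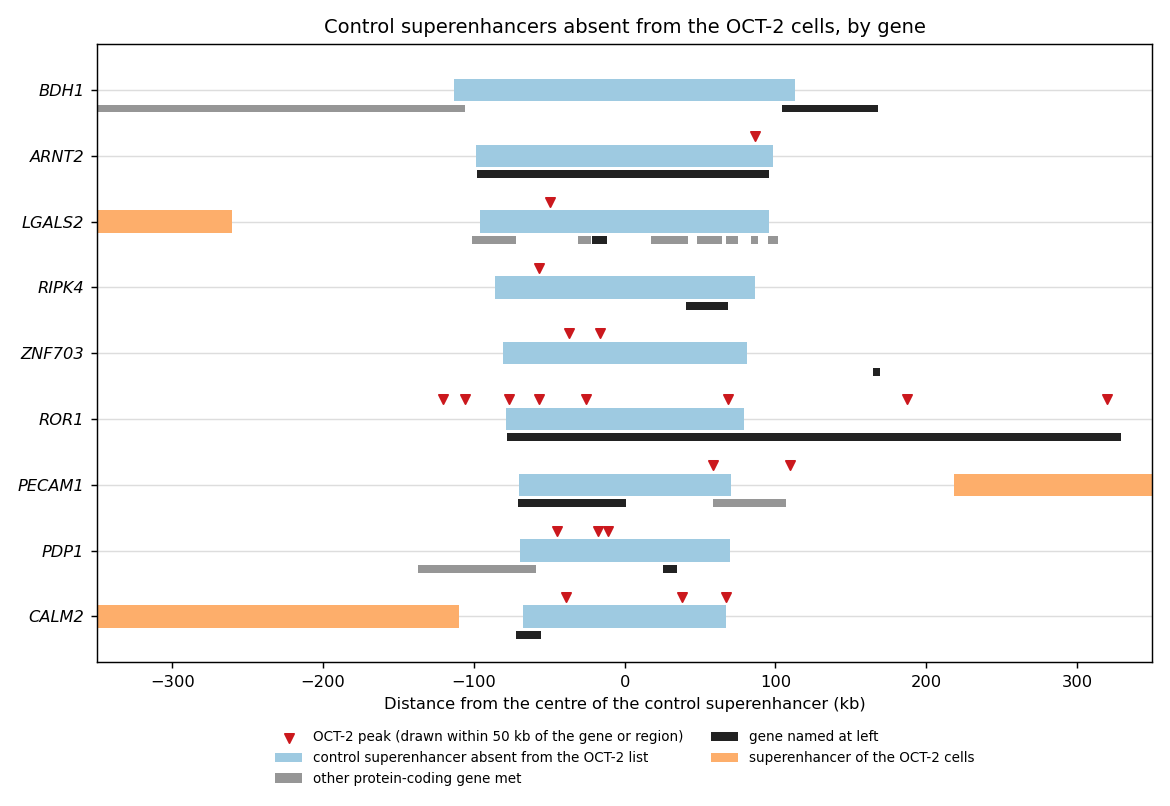
The 9 lost control superenhancers (blue), drawn to scale by distance in kb from the centre of each, with the named gene (black), other protein-coding genes met (grey), OCT-2 peaks of the OCT-2 cells (red triangles) and superenhancers of the OCT-2 cells (orange). ARNT2 and ROR1 fill their regions, the region of ZNF703 stops 83.9 kb short of the gene, and orange bars come into view only at LGALS2, PECAM1 and CALM2.

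Of the receptor and kinase genes, ROR1 and RIPK4, ROR1 had more OCT-2 peaks in its region. ROR1 encodes a receptor tyrosine kinase-like protein that binds WNT5A and is abundant in embryonic tissue and in several cancers. Its region (hg38 chromosome 1, 63773258 to 63931121, 158 kb) began 759 bp before the gene and covered the first 157 kb of it, 38.6% of a gene body of 407 kb. Within it lay 4 OCT-2 peaks, all in ROR1. The first, at 63775122 to 63775387, had its centre 1.24 kb from the start of the gene, and the others began at 63795067, 63826434 and 63920633. Beyond the region the gene held 2 more peaks, at 64039527 and 64171806, which makes 6 in the gene body. Another 2 lay 27.5 and 42 kb before the gene. Of the 9 member regions, this one had the most peaks. Over all 337 control superenhancers, 63 (18.7%) held 4 peaks or more, and of the 70 shared regions in the members' range of width 23 (32.9%) did. Of 2043 protein-coding genes of 150 kb or longer, 39.4% had any peak in the body and 16 (0.783%) had 6 or more. ROR1 is far longer than that limit, and the part of gene length in its count was not tested. The nearest superenhancer of the OCT-2 cells was 3.75 Mb away, at GNG12 and GADD45A, and was present in the OCT-2 cells alone.

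RIPK4 encodes a protein kinase known from the differentiation of epidermal keratinocytes. Its region (chromosome 21, 41612473 to 41785015, 173 kb) contained the whole gene of 27.7 kb, and only 16% of the region lay in a protein-coding gene. The rest held 7 long noncoding RNA genes, among them LINC00111, LINC00112 and LINC00479. The microRNA gene MIR6814 lies inside RIPK4. A single OCT-2 peak (41642034 to 41642332) lay in it, 97 kb from RIPK4 and 29.7 kb from the edge of the region. The nearest superenhancer of the OCT-2 cells, at ITGB2, PTTG1IP and SLX9, lay 3.06 Mb away and had no counterpart in the control list.

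The transcription regulators ARNT2 and ZNF703 had opposite layouts. ARNT2, a basic helix-loop-helix and PAS factor that pairs with other factors of its class, filled its region almost exactly. The region (chromosome 15, 80403978 to 80600879, 197 kb) began 404 bp before one end of the gene and stopped 2946 bp past the other, and the gene of 194 kb made up 98.3% of it. It held 1 OCT-2 peak (80588778 to 80589215), in the gene and 8.94 kb from its far end. At 438 bp this peak was wide for the list, in which the median was 267 bp and 81 of 5736 peaks (1.41%) were as wide. ZNF703, a zinc finger co-repressor known from an amplified locus of luminal breast cancers, was not met by any control superenhancer. Its region (chromosome 8, 37449956 to 37611846, 162 kb) met no protein-coding gene at all, lay 83.9 kb from ZNF703 on one side and 514 kb from KCNU1 on the other, and met 4 long noncoding RNA genes, among them LINC01605. It held 2 OCT-2 peaks, 181 and 202 kb from ZNF703, both inside LINC01605. The nearest superenhancers of the OCT-2 cells were distant at both genes, 5.97 Mb from the ARNT2 region, at SEMA7A, and 3.46 Mb from the ZNF703 region, 9.68 kb from SFRP1.

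The regions of the metabolic genes, like those of ZNF703, CALM2 and RIPK4, were mostly outside protein-coding genes. BDH1 encodes the mitochondrial dehydrogenase that interconverts acetoacetate and beta-hydroxybutyrate. The region listed for it (chromosome 3, 197292250 to 197518599, 226 kb) is the widest of the 29 and covered 8.82 kb of the gene, 13.9% of its length, at the end away from its starts. Neither of the 2 promoter windows of BDH1 lay inside. At the opposite edge it covered 7.07 kb of DLG1, the gene of a scaffold protein of cell polarity, and 4 of the 5 DLG1 promoter windows. Only 7.02% of the region lay in a protein-coding gene. The region also met 5 long noncoding RNA genes, and MIR4797, which lies inside DLG1. No OCT-2 peak lay in it, and the peak nearest to BDH1 was 295 kb from the gene. BDH1 was thus the member with the widest region and no peak.

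PDP1 encodes a phosphatase that activates the pyruvate dehydrogenase complex. Its region (chromosome 8, 93821910 to 93961448, 140 kb) contained the whole gene of 9.15 kb, the end of TMEM67 (10.7 kb), a gene of the ciliary transition zone, and MIR378D2 with its host gene. There were 3 OCT-2 peaks, none in a protein-coding gene, at 36.3, 42.9 and 70 kb from PDP1. Among the 9, this region lay farthest from a superenhancer of the OCT-2 cells, at 8.83 Mb. That one, 14.4 kb from AZIN1 and 24.4 kb wide, was present in the OCT-2 cells alone.

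The regions at PECAM1, LGALS2 and CALM2 lay closest to a superenhancer of the OCT-2 cells, which in each case was kept from the control cells. PECAM1 encodes an adhesion molecule of endothelial cells, platelets and leukocytes. The region (chromosome 17, 64319939 to 64460682, 141 kb) covered 70.9 kb (99.3%) of the gene and ended 69.8 kb past it. It also took in 11.6 kb of MILR1, the gene of an immunoglobulin-like receptor of mast cells. The only OCT-2 peak (64448931 to 64449263) covered one end of MILR1, 58.1 kb from PECAM1. Of the other 11 endothelial genes checked, 0 were within 10 kb of a control superenhancer and 1, CD34, was near one of the OCT-2 cells alone. Of 10 leukocyte genes, none was near a superenhancer in either population. These low counts are near the shares over all protein-coding genes, 4.31% for the control cells and 5.74% for the OCT-2 cells. A region at SMURF2, a ubiquitin ligase of TGF-β signalling, was listed in both populations. It began 148 kb beyond the lost one in the OCT-2 cells. In the control cells it began 162 kb beyond, and the far ends of the calls differed by 20 bp.

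LGALS2 and LGALS1, both genes of galectins, which are lectins that bind beta-galactosides, shared a region of 191 kb (chromosome 22, 37495885 to 37687341). It met 8 protein-coding genes, more than any other member region, and held 6 of them whole: CDC42EP1, LGALS2, GGA1, SH3BP1, PDXP and LGALS1. CARD10 and NOL12 reached in from the edges. LGALS2, with 9.84 kb, made up 5.14% of the region. The single OCT-2 peak (37541784 to 37542046) lay outside all 8 genes, 28.2 kb from LGALS2 and 18.6 kb from an end of CDC42EP1. A superenhancer kept in both populations, at CYTH4 and RAC2, lay 165 kb away in the OCT-2 cells. It began within 149 bp of the same position in both lists, and in the OCT-2 cells it ended 15722 bp earlier, at 103 kb of width against 119 kb.

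CALM2 is one of the genes that encode calmodulin, the main calcium sensor of the cell. Its region (chromosome 2, 47165110 to 47299502, 134 kb) covered 70.2% of the gene and ran 123 kb past it over EPCAM-DT, a long noncoding RNA gene of which 107 kb lay inside. EPCAM itself, the gene of an epithelial adhesion molecule, began 69.8 kb beyond the region and had no OCT-2 peak within 10 kb. There were 2 peaks inside, 16.3 and 92.9 kb from CALM2, and a further peak lay 0.122 kb past the edge. All 3 fell in EPCAM-DT. On the other side a superenhancer at TTC7A was listed in both populations, with ends 205 bp apart facing CALM2, and reached to within 42.5 kb of the lost region. In the control cells the gap was 42.7 kb. This call was 321 kb wide in the control cells and 275 kb in the OCT-2 cells, and the ends away from CALM2 were 45.9 kb apart.

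The surroundings of the 9 regions fell into 2 kinds. At BDH1, ARNT2, RIPK4, ZNF703, ROR1 and PDP1, neither list had any other superenhancer within 1 Mb. The same held, overlapped regions left aside, for 147 of all 337 control superenhancers (43.6%). Among the 70 shared regions in the members' range of width it held for 38 (54.3%), and the difference was not tested. At LGALS2, PECAM1 and CALM2, both lists had at least 1 other superenhancer within 1 Mb, and all of these neighbours were kept. Kept neighbours are the usual case, since only 29 of all 337 control superenhancers (8.61%) were lost. Of the 518 superenhancers of the OCT-2 cells, 204 had no control counterpart. To the nearest superenhancer of the OCT-2 cells the 9 regions had a median distance of 3.06 Mb. For the other 20 lost regions it was 604 kb. For the 308 shared ones, measured to the nearest region they did not overlap, it was 866 kb, and 1.13 Mb for the 70 shared regions in the members' range of width. The ranges of the classes overlapped widely. These distances come from the same lists that the members were chosen from, so they are a description and their differences were not tested. A distance over 1 Mb was found for 6 of 9 members, 45% of the other lost regions and 54.3% of the shared regions of like width.

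**Figure D2:**
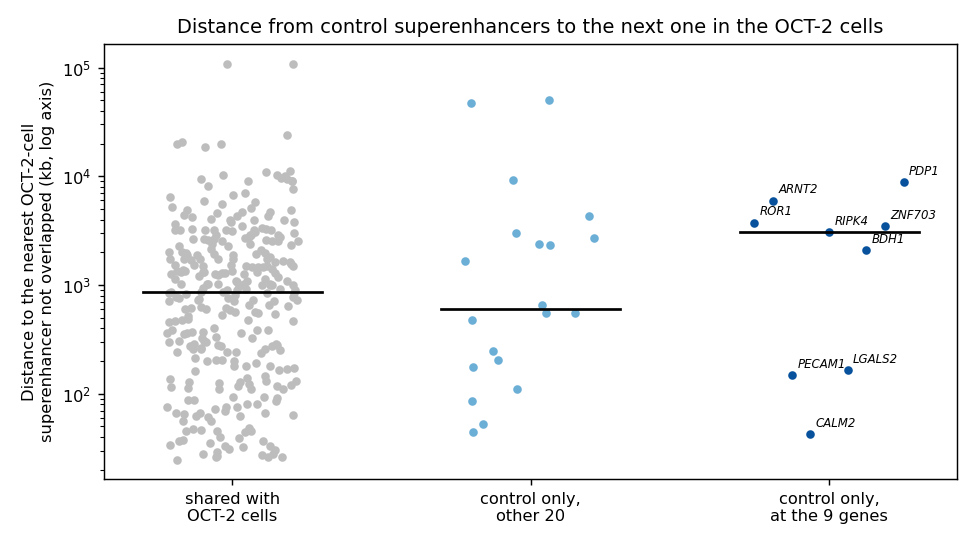
Distance in kb, on a log axis, from each control superenhancer to the nearest superenhancer of the OCT-2 cells that it does not overlap, for 308 shared regions, the other 20 lost regions and the 9 at the named genes; each point is a region and bars are medians. CALM2, PECAM1 and LGALS2 sit at 42.5 to 165 kb and the remaining 6 genes at 2.09 to 8.83 Mb, inside the spread of the shared regions.

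The rule for the members used the superenhancer lists and not the OCT-2 peaks, but it took wide regions, and the median number of peaks was 1 in the narrowest of 4 width classes of control superenhancers and 3 in the widest. A peak was present in 8 of the 9 regions, against 81% of all 337 control superenhancers, so the count was near the background. For all 29 lost regions it was 79.3% (exact Clopper-Pearson 95% interval 60.3 to 92%, counting error only), for the 308 shared ones 81.2% (76.3 to 85.4%), and for the 70 shared regions as wide as the members 91.4% (82.3 to 96.8%). These intervals overlap. The number of peaks per region was 0 at BDH1, 1 at ARNT2, LGALS2, RIPK4 and PECAM1, 2 at ZNF703 and CALM2, 3 at PDP1 and 4 at ROR1. The median was 1, against 2 over all control superenhancers and 2.5 over the shared ones of like width. Per Mb, the member regions held 9.86 peaks, the other lost regions 16.2, and the shared ones of like width 16.3. Of the 9, 5 lay under 10 peaks per Mb (BDH1, ARNT2, LGALS2, RIPK4 and PECAM1), as did 34.3% of the shared regions of like width. With 15 peaks in all, this lower density was not tested.

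**Figure D3:**
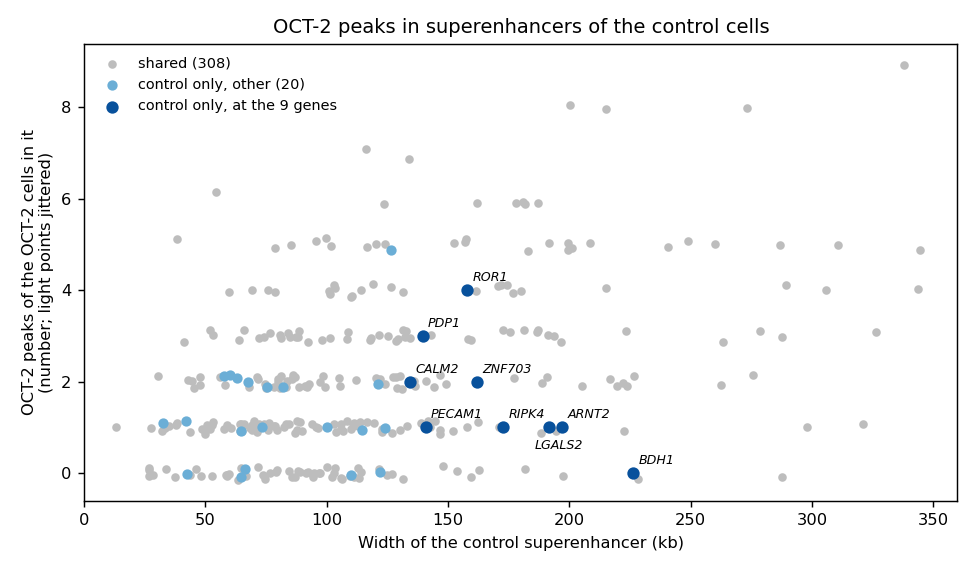
Number of OCT-2 peaks in each superenhancer of the control cells against its width in kb, with shared regions in grey, the other lost regions in light blue and the 9 at the named genes in dark blue. BDH1 is wide and has 0 peaks, ROR1 has 4, and all 9 lie within the spread of shared regions of the same width.

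The peaks lay for the most part away from the named genes. Of the 15, 5 were in the gene itself (4 in ROR1, 1 in ARNT2), 1 was at MILR1 and 9 were outside protein-coding genes. The one at MILR1 was the only peak of the 15 closer than 1 kb to where a protein-coding gene starts or stops. Over all 5736 peaks, 51% met a protein-coding gene, against 40% of these 15. Counted from the genes, 2 of 9 (ROR1 and ARNT2) had a peak within 10 kb, against 15.5% of all protein-coding genes, most of which lie at no superenhancer. In the other 6 regions with peaks none lay in the gene the region is named for. A median of 16% of a member region lay in protein-coding genes, against 60.3% of a shared region and 59.4% of a shared region of like width. The members ran from 0% (ZNF703) through 50.6% (LGALS2) and 58.6% (PECAM1) to 98.3% (ARNT2) and 99.5% (ROR1), so that ARNT2 and ROR1 exceeded the shared median. This difference of medians was not tested. For the other 20 lost regions the median was 30.6%.

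Relatives of the 9 genes were examined in 8 lists: ketone body metabolism, basic helix-loop-helix and PAS factors, galectins, receptor-interacting kinases with epidermal partners, ZNF703 relatives with co-repressors, ROR receptors with noncanonical Wnt genes, pyruvate dehydrogenase control, and calmodulins with their kinases. Without the members they held 108 genes. A lost control superenhancer lay within 10 kb of 2 of them, LGALS1 and FZD2, against 0.245% of all protein-coding genes. LGALS1 is the neighbour of LGALS2 and shares its region, so it is no separate case. FZD2, a Wnt receptor of the frizzled family, lay whole in a lost region of its own (chromosome 17, 44533428 to 44565971), at 32.5 kb the narrowest of the 29. This region held 1 OCT-2 peak, 10.1 kb from FZD2, and lay 556 kb from the nearest superenhancer of the OCT-2 cells, at HEXIM2. In the Wnt list, 1 of 20 genes other than ROR1 was thus at a lost region. ROR1 itself was chosen for its lost region and adds nothing to this count. DVL1, a cytoplasmic transducer, was at a region kept in both populations. The other 18 genes, among them ROR2, WNT5A and RYK, were at none.

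In the remaining lists the relatives at superenhancers were all at regions kept in both populations or present in the OCT-2 cells alone. The lactate and monocarboxylate transporter SLC16A3, the clock factor NPAS2, the epidermal factor GRHL3, the pyruvate dehydrogenase kinase PDK2, the complex component PDHX and the calmodulin kinase CAMK2G were at kept regions. The factors HIF1A and NPAS1, of the same class as ARNT2, were at regions of the OCT-2 cells alone. Over all lists, 2.78% of the relatives were at such regions, against 1.93% of protein-coding genes. In all, 10 of 108 were within 10 kb of a control superenhancer (9.26%, against 4.31% of protein-coding genes) and 11 of one of the OCT-2 cells (10.2%, against 5.74%). The 10 include LGALS1, which shares the region of LGALS2. An OCT-2 peak lay within 10 kb of 22 relatives (20.4%, against 15.5%), among them OXCT1 with 4 peaks and NPAS2, TLE3 and CAMK2D with 2 each. BDH2, BMAL2, RIPK1, TP63, DSTYK, PTK7, RYK and FZD8 had 1 each and no superenhancer. The lists of relatives were chosen with earlier results of these data known, and their differences from all protein-coding genes were not tested.

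**Figure D4:**
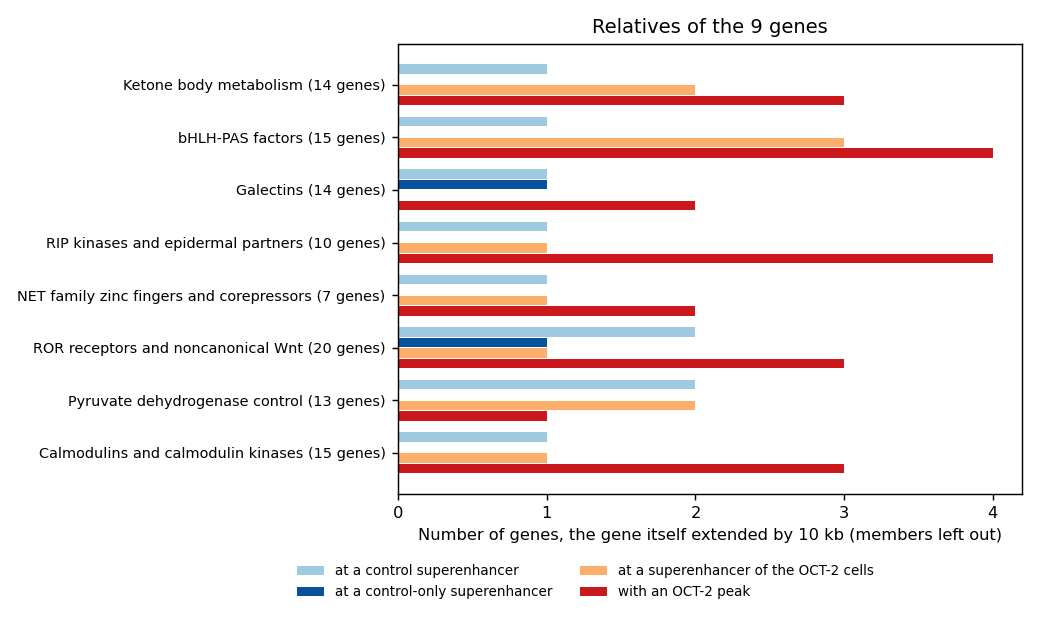
Number of genes of each list of relatives, members left out, that lay within 10 kb of a control superenhancer, of a lost one, of a superenhancer of the OCT-2 cells or of an OCT-2 peak. Lost regions appear for the galectin and the Wnt list alone, with 1 gene each (LGALS1 and FZD2).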

How the data were processed

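From 19 ChIP-seq samples the authors deposited 10 interval lists, whose values are start and end positions. Per the labels, 5 µg of antibody and 15 PCR cycles were used and each list combines replicates 1 and 2. HOMER, bedtools, Bowtie and Bowtie2 2.2.2.6 appear in the submitters' processing notes without roles, and no source used here gives calling thresholds. Used were the 3 lists whose deposited names say hg38 (337 control superenhancers, 518 of the OCT-2 cells, 5736 of 5741 OCT-2 peaks, 5 on other contigs left out). The other 7 lists are in hg19, the MDA-MB-436 ones by their region ends, and were not used, since no coordinates were converted.

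Gene positions came from RefSeq GRCh38.p14. Regions counted as shared from an overlap of 1 bp, peaks were counted by any overlap, and distances run edge to edge. Named are the members, genes met by their regions, genes nearest to the closest OCT-2-cell superenhancers, genes just outside the choice, and relatives at superenhancers or peaks; relatives' lists held 116 genes, all matched. A few genes under this rule are not reported here. Members and lists were chosen with earlier results of these data known. Interval functions were tested on simulated data. Python 3.11.15, numpy 2.4.6, scipy 1.17.1 and matplotlib 3.10.9 were used. No test over samples was run, because the lists hold no value per replicate. Alternatives in overlap, windows, list length and motif letters were tried.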

Additional observations from a re-analysis of the deposited data

How the results depend on the processing

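The 9 regions stayed apart from every superenhancer of the OCT-2 cells when regions within 10 kb counted as shared, and 8 did so within 50 kb, where CALM2 joined the TTC7A region. Asking for 50% of a control region to be covered could not change them, since they share no base. The count of 29 lost control regions rose to 46 when 50% had to be covered and to 107 with only the 337 widest superenhancers of the OCT-2 cells, and stayed at 29 with a gap of 10 kb. Within 50 kb of the gene, 5 members had an OCT-2 peak in place of 2, against 28.9% of protein-coding genes, and 45 relatives in place of 22, an alternative chosen after seeing the data. For each of these 5 members the peak nearest to the gene lay in its lost region. The members were chosen for a superenhancer, so all protein-coding genes are not a like background for them. Peak counts in regions by peak centre (8 and 23) or with 10 kb added (8 and 24), the distance from centre to centre (median 3.21 Mb) and the letters ATGCNAAT (0 of 15 windows) moved little or not at all. No paired analysis was possible because the lists hold no columns per replicate, and for the same reason no replicate could be left out. Depth limits every absence here: a region missing from a list may lie just under the authors' threshold.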

Other observations

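The share of control regions that were lost differed between chromosomes, which touches the LGALS2 region. On chromosome 22, 3 of 8 control superenhancers were lost and the OCT-2 cells had 5 in all, and on chromosome X 3 of 5 were lost and the OCT-2 cells had 2. On the other 21 chromosomes with any superenhancer the OCT-2 cells had more than the control cells. The lost regions of chromosome 22 include the one at LGALS2 itself. Chromosomes 7, 17 and 21 lost 3 of 9, 4 of 20 and 1 of 3 control superenhancers. Chromosomes 10, 11, 12 and 20, with 20, 23, 16 and 15 control superenhancers, had none lost. These small counts are descriptions of 2 lists, and the spread over chromosomes was not tested.

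With the control superenhancers split into 4 classes by width, the widest class held 6 lost regions of 85 (7.06%) and the narrowest 11 of 84 (13.1%). Between them, the second widest class held 9 of 84 (10.7%) and the next 3 of 84 (3.57%), so the share did not change steadily with width. That all 6 in the widest class were at the named genes follows from the choice of members by width.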
